A study of Mus musculus with 19 samples.

Results

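Of the 35 genes of glycolysis, gluconeogenesis and glucose transport examined here, 29 were measured by 41 annotated probes, among 14776 genes named on a mouse bead array of 24048 probes. A probe counted as one of them if its annotated symbol was on the list of glucose transporters, glycolytic enzymes with their isoforms, lactate enzymes and carriers, and the enzymes particular to glucose production. Gpi1 and Eno1 were named on 3 further probes only through tables of the study, which list genes changed on these same arrays, so their values are descriptions and they were left out of every count. Hk3, Pfkfb1, Aldoc and Slc16a3 had no named probe. Of the 29 genes, 7 were detected on all 19 arrays and 1, the lactate carrier Slc16a1, on none.

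The arrays were made from livers, spleens and hearts of male BALB/c mice that the labels give as 12 weeks old and as fed an atherogenic diet for 6 weeks. In the AD + OPP group the drink was oil palm phenolics at 1500 ppm gallic acid equivalent, a water-soluble plant extract, and in the AD + DW group it was distilled water. There were 3 AD + OPP and 4 AD + DW liver arrays, 3 and 3 spleen arrays, and 3 and 3 heart arrays. Every mouse thus received the atherogenic diet. All were fasted overnight before they were killed, but from food only, as fluids were still given. The methods do not name the fluid given during the fast. The paper also reports that OPP changed the glucose level, which it calls probably due to fruit sugars. The levels below are thus those of mice fasted from food. Mice shared cages, and since neither cage nor array slide is given per sample, these cannot be told apart from the treatment. RNA samples of high integrity were chosen for the arrays and outlier arrays were taken out by clustering, per the methods, which speak of the same RNA samples as biological replicates.

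Glycolysis turns glucose into pyruvate in the cytosol. Glucose enters through carriers of the Slc2a family, is trapped as glucose 6-phosphate by a hexokinase, is committed at phosphofructokinase, and passes through aldolase, Tpi1, Gapdh, Pgk1, phosphoglycerate mutase, enolase and pyruvate kinase. Bifunctional Pfkfb enzymes set the level of fructose 2,6-bisphosphate, the activator of phosphofructokinase, and lactate dehydrogenase converts pyruvate to lactate. The fasted liver runs the path in reverse by means of Pck1, Fbp1 and G6pc, whereas the heart takes up glucose through the insulin-responsive carrier Slc2a4. Most steps have isoforms that differ by tissue.

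Between 5863 and 7524 probes were detected on a spleen array, 6105 to 6883 on a liver array and 6554 to 7576 on a heart array, where detection means a deposited p-value under 0.01. All 13 hepatocyte genes with a probe were detected in the liver, 9 of 10 cardiac muscle genes in the heart, and 9 of 11 B cell and 7 of 10 T cell genes in the spleen. Other tissue was visible on single arrays. The 13 measured genes of pancreatic acinar cells, which make digestive enzymes, summed to 230358 units of signal on spleen array 1 of AD + OPP and to 300343 and 816186 on arrays 1 and 3 of AD + DW, against 479.6 to 513.8 on the remaining 3 spleen arrays. Liver array 3 of AD + DW also carried these genes, with a sum of 40799, against 527.9 to 1057 on the other liver arrays. Liver array 1 of AD + DW carried skeletal muscle genes, with a mean log2 signal of 7.44 over 8 genes, against 3.41 to 3.57 on the other liver arrays. Spleen array 3 of AD + DW had the fewest detected probes.

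In the spleen, 10 of the 15 genes tested had higher signal in the AD + OPP group, where 41.8% of all probes did, and 5 had lower signal, where 58.2% did. Their median log2 difference was 0.78, against -0.07 over all 6664 probes tested there. The median was 0 with no detection filter, where genes that no array detected enter, 0.45 without the 3 arrays with pancreatic signal, and 0.59 and 1.08 without AD + DW array 1 and array 2. They included the carrier Slc2a3, the hexokinase Hk2, the regulator Pfkfb4, and Aldoa, Gapdh, Pgk1 and Pkm. No member passed an adjusted p of 0.05 in limma with Benjamini-Hochberg adjustment, as was so for 0% of all probes. At an unadjusted p under 0.01, 7 members were higher (46.7% of those tested), where 4.04% of all probes were, and 0 were lower, where 3.02% of all probes were. The count of higher members was 3 without AD + DW array 1, 4 without AD + DW array 3 or AD + OPP array 3, and 3 in the methods' t-test. The share of all probes was not counted in these settings. In 9 members (60%) every AD + OPP array lay above every AD + DW array, where 11.1% of all probes were so ordered. A gene entered the test where all arrays of either group detected it, so the shares cover the genes tested and not the whole list.

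Slc2a3, a high-affinity glucose carrier of white blood cells and neurons, had normalized signals of 2304, 1932 and 1937.9 in spleens of the AD + OPP group, against 835.2, 1077.5 and 627.9 in the AD + DW group. All AD + OPP arrays stood well above the AD + DW arrays, and the log2 difference was 1.31 with a standard error of 0.23 (limma, adjusted p = 0.0712). Hk2, the hexokinase isoform that is induced in dividing and activated cells, gave 520.3, 462 and 419.7 against 175.9, 289.1 and 188.8. Its log2 difference was 1.13 ± 0.23 (SE, limma, adjusted p = 0.0786), and the highest AD + DW array was again number 2.

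Pfkfb4, which makes and breaks down fructose 2,6-bisphosphate, had the largest log2 difference of the members tested in the spleen, with signals of 802, 735.2 and 793 in AD + OPP spleens and 231.3, 353.4 and 229.2 in AD + DW spleens. The log2 difference of 1.55 ± 0.21 (SE, limma, adjusted p = 0.0712) corresponded to a 2.92-fold higher signal. The rest of the phosphofructokinase step stood level, as Pfkl, Pfkm, Pfkfb2 and Pfkfb3 had log2 differences between -0.17 and -0.10. Their 95% intervals ran from -0.65 to 0.38 for Pfkl and from -0.77 to 0.56 for Pfkm, so differences within these bounds remain possible. The general carrier Slc2a1 likewise differed by only -0.02, with an interval of -0.78 to 0.73.

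Aldoa, which splits fructose 1,6-bisphosphate, had signals of 1518.9, 1268.8 and 1365.2 in the AD + OPP group, against 529.2, 936.6 and 523.5 in the AD + DW group (log2 difference 1.11, limma, adjusted p = 0.0952). Gapdh, which yields the first NADH of the path and is often taken as a reference gene, gave 8839.8, 8252.3 and 8353.1 against 3652.4, 5817.7 and 4025.9. The difference was 0.94 ± 0.21 on the log2 scale (SE, limma, adjusted p = 0.0858). Both further Gapdh probes had higher signal in AD + OPP too, by 0.67 and 0.89, with groups that did not overlap. A probe for Gapdh or Pgk1 may also bind RNA of their many processed copies in the genome.

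Pgk1, the first step that makes ATP, had signals of 3079.7, 2626.4 and 2616.1 in AD + OPP spleens and 1105.4, 1917.3 and 1472 in AD + DW spleens, a log2 difference of 0.92 (limma, adjusted p = 0.11). Pkm, the pyruvate kinase of muscle and of most dividing cells, gave 4496.7, 3293.3 and 2978.9 in the AD + OPP group and 1070.2, 1975.1 and 1019.4 in the AD + DW group. This was a 2.74-fold difference in signal, or 1.45 ± 0.30 on the log2 scale (SE, limma, adjusted p = 0.0786). The probe does not say which of the splice forms of Pkm was present. Tpi1, Ldha and Pgam1 were higher by 0.74, 0.62 and 0.78, at adjusted p-values of 0.155, 0.179 and 0.311, and only for Pgam1 did the groups overlap.

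**Figure D1:**
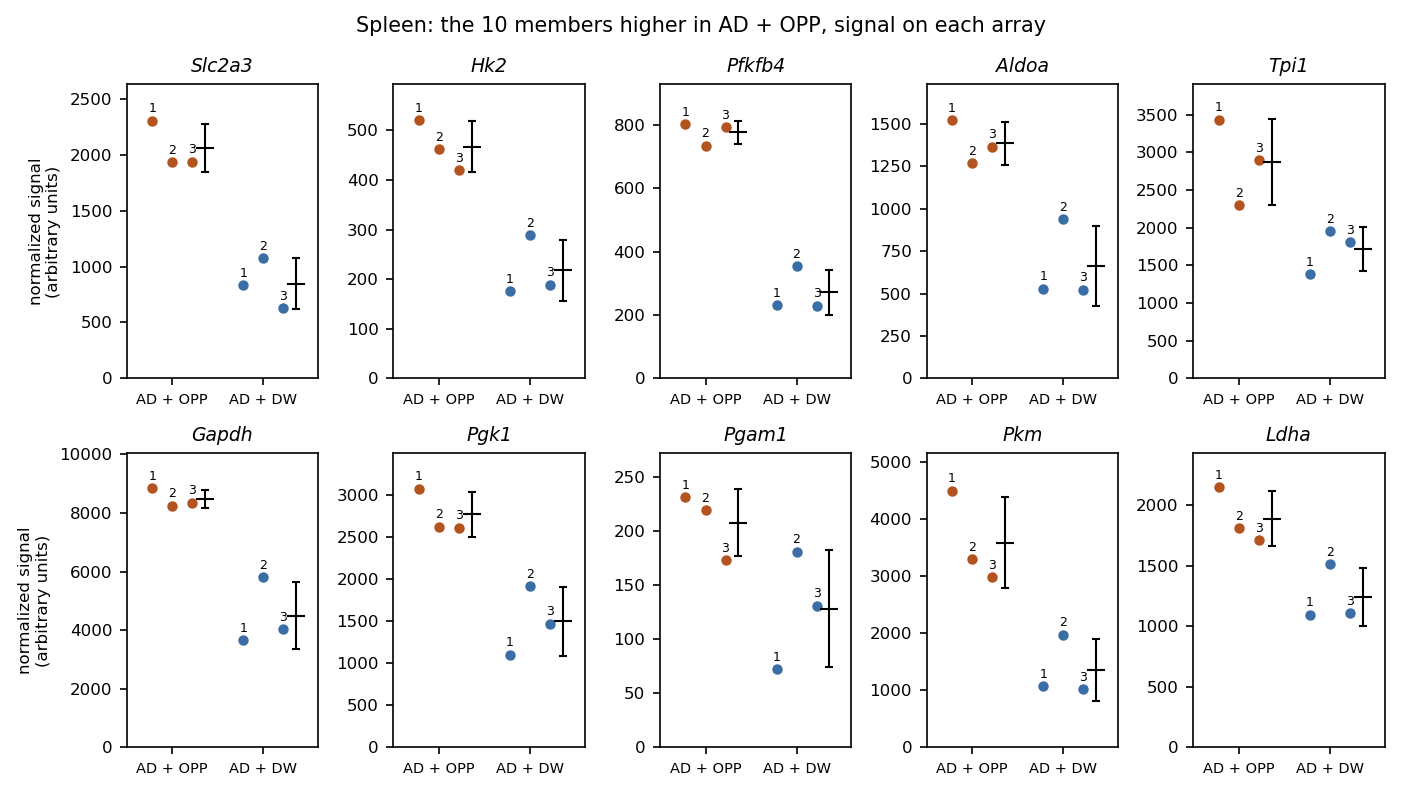
Normalized signal (y axis, arbitrary units from 0) on each spleen array for the 10 members with higher signal in AD + OPP, with AD + OPP (brown) left of AD + DW (blue), replicate numbers beside the points, and the mean with SD in black. In every panel but that of Pgam1 the 3 AD + OPP arrays lie above all 3 AD + DW arrays, and AD + DW array 2 is the highest of its group.

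The steps between were read from the probes named only through the study's tables. Gpi1, which turns glucose 6-phosphate into fructose 6-phosphate, had 2663.1, 2300.5 and 2302.7 in AD + OPP spleens and 750, 1287.2 and 974.6 in AD + DW spleens. Eno1, the enolase of most tissues, had 857.6, 718.4 and 796 in AD + OPP spleens and 307.4, 504 and 295.7 in AD + DW spleens. Since these probes could be named only because the study lists them as changed, they give no independent count of the path.

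The 14 remaining members with a probe were not tested in the spleen, 9 of them since no array detected them. Those 9 included Pck1, Fbp1 and G6pc, the enzymes of glucose production. Among those detected on a single array was Fbp2, the muscle form of fructose bisphosphatase, with 294.7 on AD + DW array 3 and -5.2 to 65.2 on the others, where values below 0 are below the array's background.

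Promoters are shown for 4 members that were higher in AD + OPP spleens and have a single window in RefSeq. Of these, 2 hold ACGTG, a form of the core of the hypoxia response element. That element is bound by HIF-1, a known activator of glycolytic genes. The windows are the 250 bases before the transcription start, 5′ to 3′ on the gene's strand, in GRCm38.p6, and capitals mark ACGTG on either strand (ACGTG or CACGT), letters that also form the inner part of the CACGTG E-box. Pfkfb4 lies at chr9:108991652-108991901 (plus strand), Gapdh at chr6:125165774-125166023 (minus strand), Hk2 at chr6:82774455-82774704 (minus strand) and Pgk1 at chrX:106186850-106187099 (plus strand).
Pfkfb4: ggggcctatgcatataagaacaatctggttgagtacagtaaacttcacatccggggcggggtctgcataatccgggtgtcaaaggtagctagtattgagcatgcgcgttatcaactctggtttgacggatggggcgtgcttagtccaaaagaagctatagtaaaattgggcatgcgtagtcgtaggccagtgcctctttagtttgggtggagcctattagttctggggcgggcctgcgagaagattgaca
Gapdh: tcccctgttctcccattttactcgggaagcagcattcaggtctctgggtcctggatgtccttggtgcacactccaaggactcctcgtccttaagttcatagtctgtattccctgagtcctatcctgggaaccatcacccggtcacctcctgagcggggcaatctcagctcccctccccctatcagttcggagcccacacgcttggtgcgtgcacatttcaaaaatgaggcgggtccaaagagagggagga
Hk2: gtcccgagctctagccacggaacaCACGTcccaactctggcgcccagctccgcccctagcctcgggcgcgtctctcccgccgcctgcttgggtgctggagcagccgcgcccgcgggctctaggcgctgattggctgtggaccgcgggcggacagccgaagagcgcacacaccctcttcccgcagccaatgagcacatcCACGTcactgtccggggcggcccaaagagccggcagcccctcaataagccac
Pgk1: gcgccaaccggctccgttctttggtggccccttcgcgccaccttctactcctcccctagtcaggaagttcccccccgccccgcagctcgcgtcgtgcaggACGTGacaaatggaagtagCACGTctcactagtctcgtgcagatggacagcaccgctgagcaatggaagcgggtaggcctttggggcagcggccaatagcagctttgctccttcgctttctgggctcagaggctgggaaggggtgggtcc
The letters occurred at 2 places in the window of Hk2 and at 2 in that of Pgk1, and at none in those of Pfkfb4 and Gapdh. They occurred in 18 of the 51 windows of the 33 members with a RefSeq window (35.3%), and in 16.6% of all 32851 windows of this length. Windows of a gene can overlap, as for Aldoa, and the members include genes not tested in the spleen. Pfkm, Pfkfb2, Pfkfb3 and Slc2a1, which were not higher in AD + OPP spleens, also held the letters, and Pfkl did not. Tpi1, which was higher, held none. Whether the letters bear on the spleen values was not tested. A match is a run of letters and not a measured binding site. Pfkfb4, with the smallest p of the members tested in the spleen, had no ACGTG in this window. The core can also read GCGTG, which was neither marked nor counted, and which occurs in the printed windows of Pfkfb4 and Gapdh.

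The genes around the path, 52 with a probe, were read in the same way. In the spleen, 16 were tested, of which 11 had higher signal in AD + OPP and 5 lower, where 41.8% and 58.2% of all probes did. At an unadjusted p under 0.01, 5 were higher and 0 lower, where 4.04% and 3.02% of all probes were. None passed adjustment, and the median log2 difference was 0.23. Pygl, a glycogen phosphorylase, had 578, 980.4 and 817.8 in the AD + OPP group, against 135.7, 308.5 and 125.4 in the AD + DW group (log2 difference 2.15, limma, adjusted p = 0.0712). Gpd2, the mitochondrial glycerol phosphate dehydrogenase that takes up electrons from cytosolic NADH, had 410.7, 384 and 404 against 231.6, 250.3 and 250.9. Adpgk, a glucokinase that uses ADP, had 2206.4, 1832.7 and 1301.7 against 403.1, 895.8 and 446. Egln3, an oxygen-sensing prolyl hydroxylase, and Pgm1, which links glycogen to glucose 6-phosphate, were the other genes at that p. For all 5 the AD + OPP arrays lay above the AD + DW arrays without overlap, which their choice by p on these same arrays made likely. Of the other related genes tested, Pdha1 was higher and Pygb lower without overlap. Over all probes, 11.1% were so ordered upward and 12.3% downward.

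Other cell markers moved with these values. All 19 neutrophil genes with a probe were higher in AD + OPP spleens, where 41.8% of all probes were. At an unadjusted p under 0.01, 14 of the 19 genes were higher, where 4.04% of all probes were, and 0 of the 19 were undetected throughout. Their summed signal was 180936 to 198076 in the AD + OPP group and 56181 to 131852 in the AD + DW group. Averaged per array on the log2 scale, these 19 genes gave 11.76, 11.86 and 11.77 in the AD + OPP group, against 9.29, 10.75 and 9.53 in the AD + DW group. For the 15 glycolysis members the array means were 9.79, 9.63 and 9.74 in AD + OPP, against 8.89, 9.32 and 8.94 in AD + DW. Among the AD + DW arrays both lists put the arrays in the same order, whereas AD + OPP array 2 was the highest of its group for the neutrophil genes and the lowest for the glycolysis members. All 9 B cell genes tested were lower in AD + OPP spleens, where 58.2% of all probes were. The 11 B cell genes with a probe summed to 2282 to 3415 in the AD + OPP group and 5042 to 6700 in the AD + DW group, and 2 of them were detected on no array. All 7 T cell genes tested were lower as well, and 3 of 10 were undetected. All 10 red cell genes tested were lower, 1 at an unadjusted p under 0.01, and 4 of 4 macrophage genes were lower, 1 at that p. Of all probes, 3.02% were lower at that p. Of 6 megakaryocyte genes tested 5 were higher, 0 at that p, with a median log2 difference of 0.69. Of 13 acute phase genes 6 were detected on no spleen array, and Hp, the 1 that every array detected, averaged 6522 in AD + OPP and 1298 in AD + DW. The part of these cells in the glycolysis values was not tested. In bulk tissue, more cells of a type and more RNA per cell cannot be told apart.

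The 3 spleen arrays with pancreatic signal were AD + OPP 1 and AD + DW 1 and 3, which leaves AD + DW 2 as the only AD + DW array without it. In a fit over the other 16 arrays, which assumes that this lone array varies like the other groups, 0 members had an unadjusted p under 0.01. The log2 difference was then 1.11 for Pfkfb4, 0.84 for Slc2a3, 0.67 for Pkm, 0.61 for Hk2 and 0.51 for Gapdh. Without AD + DW array 2, in contrast, 6 members passed an adjusted p of 0.05, namely Pfkfb4, Slc2a3, Hk2, Pkm, Gapdh and Aldoa. Over all spleen probes 168 passed in that setting. Both AD + DW arrays left in it, 1 and 3, carried pancreatic signal.

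**Figure D2:**
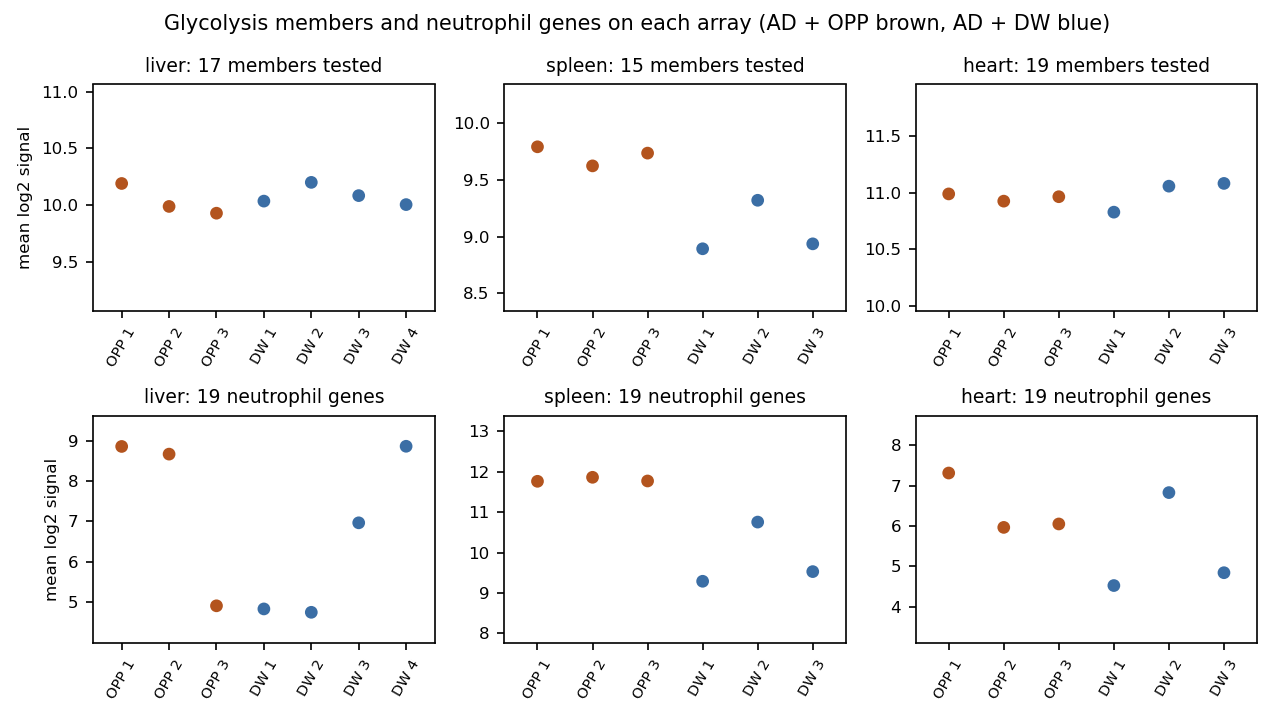
Mean log2 signal (y axis) on each array (x axis, AD + OPP brown and left, AD + DW blue), for the glycolysis members tested in each organ (upper row) and the 19 neutrophil genes (lower row), with the same span of y values across each row. In the spleen AD + DW array 2 lies between the other AD + DW arrays and the AD + OPP arrays in both rows, at 9.32 and 10.75.

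In the liver no such shift was seen. Of the 17 members tested, 7 were higher (49.3% of all probes were) and 10 lower (50.7%) in AD + OPP, with a median log2 difference of -0.03, against -0.00 over the 6007 probes tested. None passed an adjusted p of 0.05 in limma, as with 0% of all probes, and 0 reached an unadjusted p under 0.01, which 0.616% of all probes did upward and 0.716% downward. At an unadjusted p under 0.05, 1 was higher (Ldha) and 1 lower (Pfkfb3), where 3.95% and 4.29% of all probes were, so the members' count was near that background. In 0 members were the groups free of overlap, where 4.01% of probes were so upward and 4.36% downward.

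The enzymes of glucose production were bright and level. Pck1, which makes phosphoenolpyruvate from oxaloacetate, had a mean normalized signal of 11098 ± 3023 in AD + OPP livers and 11144 ± 1728 in AD + DW livers (SD, n = 3 and n = 4). Its log2 difference was -0.03, with a 95% interval of -0.58 to 0.53. Fbp1, the liver fructose bisphosphatase, differed by -0.02, with an interval of -0.38 to 0.33. G6pc, which releases free glucose, had 13752, 10854.6 and 4729.5 in the AD + OPP group, against 8801.2, 8719.9, 11432.7 and 11115.5 in the AD + DW group. AD + OPP array 3 was the lowest of all 7 livers, and the interval of -1.04 to 0.72 leaves room for a change in either direction. Slc2a2, the carrier through which hepatocytes exchange glucose, differed by -0.05, with an interval of -1.04 to 0.94.

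The smallest p-values in the liver were those of Ldha, Pfkfb3, Pklr and Pfkfb2. Ldha, the lactate dehydrogenase subunit of glycolytic tissue, had 6834.5, 6022 and 4258.3 in AD + OPP livers, against 3967.6, 4164.9, 4258.1 and 4301.5 in AD + DW livers (log2 difference 0.42 ± 0.17, SE, limma, adjusted p = 0.592). Arrays 1 and 2 of AD + OPP lay above the rest, and array 3 lay among the AD + DW arrays. Pfkfb3, an isoform with a strong kinase side, had 244.6, 134.5 and 391.1 against 546.5, 577.7, 380.9 and 299.4 (log2 difference -0.89 ± 0.38, SE, limma, adjusted p = 0.592). Pklr, the pyruvate kinase of liver and red cells, had 177.8, 114.5 and 310.9 against 239.4, 408.5, 439.1 and 190.5. Pfkfb2 had 193.4, 213.9 and 200.9 against 126.9, 222.3, 117.9 and 186.9, and in both genes the groups overlapped.

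**Figure D3:**
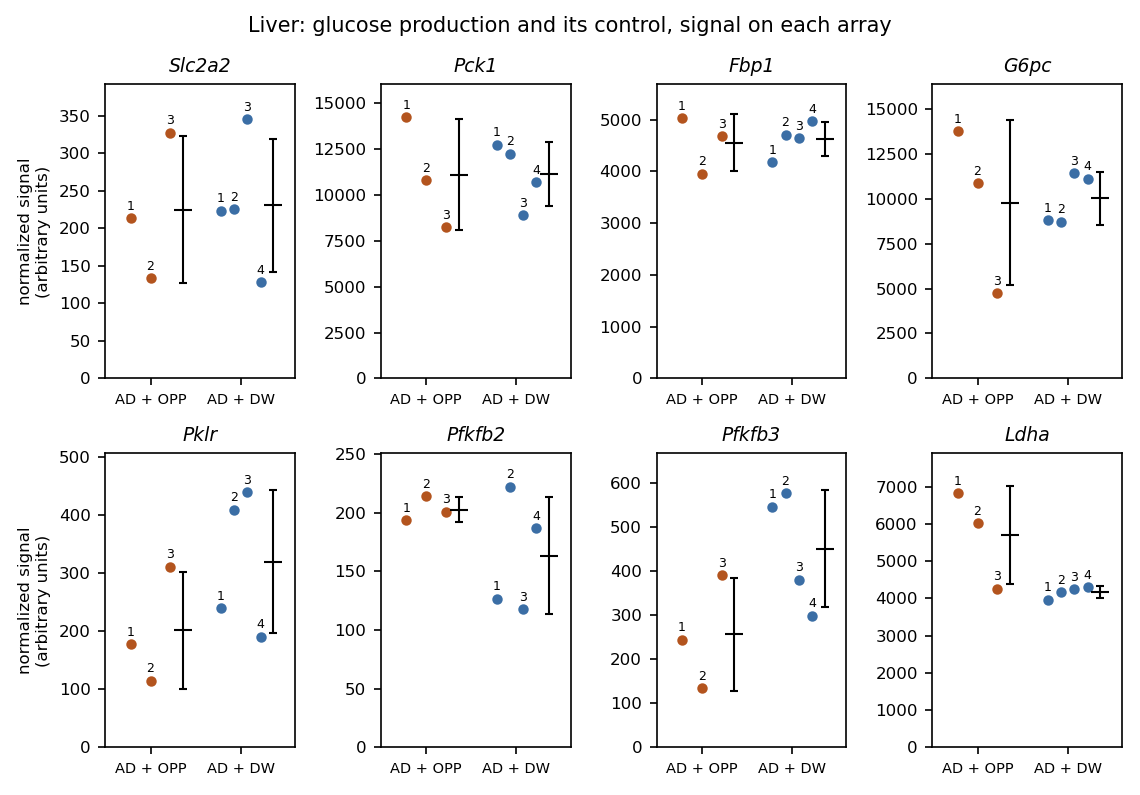
Normalized signal (y axis, arbitrary units from 0) on each liver array for 8 members, with AD + OPP (brown) left of AD + DW (blue), replicate numbers beside the points, and the mean with SD in black. The groups overlap in every panel, and in that of G6pc AD + OPP array 3 is the lowest at 4729.5.

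Acute phase genes, whose products hepatocytes release in inflammation, varied between single livers within both groups. The mean log2 signal over 13 acute phase genes was 14.69, 14.64 and 12.71 in AD + OPP livers and 12.38, 12.21, 13.16 and 14.47 in AD + DW livers, and all 13 were higher in AD + OPP with 0 at an unadjusted p under 0.01. That of the 19 neutrophil genes was 8.85, 8.67 and 4.92 in AD + OPP and 4.84, 4.76, 6.97 and 8.86 in AD + DW, with 4 of the 19 detected on no liver array. Slc2a3, too weak for the test, had signals of 61.6, 133.9 and 7 in AD + OPP livers and 11.8, 30.4, 44.9 and 183.6 in AD + DW livers. Its highest value in each group lay on an array with high neutrophil genes. Pfkfb4, also untested, had 98.6, 101.6 and 60 in AD + OPP and 40.3, 37.5, 33.8 and 164.3 in AD + DW, and Pkm had 205.1, 259.5 and 80.9 in AD + OPP and 100.3, 92.5, 146.6 and 180.7 in AD + DW. Pfkfb3 and Pklr were low on arrays 1 and 2 of AD + OPP and on array 4 of AD + DW, the 3 livers in which the acute phase genes were highest. All 4 red cell genes tested had lower signal in AD + OPP livers, with a median log2 difference of -0.95, 0 at an unadjusted p under 0.01, and 5 of 11 were detected on no liver array. Their summed signal over the 11 genes was 17253 to 44879 in AD + OPP livers and 24318 to 74839.7 in AD + DW livers. The part of these markers in the values, Pklr included, was not tested. The other 9 members tested in the liver, among them Gapdh, Pgk1, Tpi1 and Aldoa, had log2 differences between -0.18 and 0.38, and Gpi1 and Eno1 differed by -0.18 and 0.28. For Gapdh the probes disagreed in sign, at -0.04, 0.16 and 0.18. No liver array detected Hk1, Hk2, Ldhb, Slc2a4, Fbp2, Eno2, Pfkp or Slc16a1.

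Of the 52 related genes, 26 were tested in the liver, 13 with higher and 13 with lower signal, where 49.3% and 50.7% of all probes were. At an unadjusted p under 0.01, 0.616% of all probes were higher and 0.716% lower. Slc2a5, a fructose carrier, was the 1 that reached an unadjusted p under 0.01, with 74.7, 60.6 and 93.1 in the AD + OPP group, against 263.2, 139.8, 141 and 110.3 in the AD + DW group (log2 difference -1.04, limma, adjusted p = 0.59). Gpd2 had 305.4, 188.4 and 223.4 against 345.1, 362.1, 329.9 and 316.1, lower on every AD + OPP array, and in the spleen it was higher on every one, a contrast between organs that was not tested for it. Adpgk had 290.2, 221.4 and 146.5 against 115.5, 153.8, 142.5 and 163.3.

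In the heart the groups were close to each other. Of the 19 tested, 9 had higher signal in AD + OPP (51.6% of all probes did) and 10 had lower signal (48.4%), with a median log2 difference of -0.02, against 0.01 over the 6580 probes tested. None passed an adjusted p of 0.05 in limma, as with 0% of all probes, 0 had an unadjusted p under 0.01 (0.243% of all probes in each direction), and 0 were higher and 1 lower at an unadjusted p under 0.05, where 2.17% and 1.46% of all probes were. That gene was Eno2, the enolase best known from neurons, with 68.6, 60.7 and 68.7 in AD + OPP hearts and 77.4, 88.8 and 105.5 in AD + DW hearts (log2 difference -0.45 ± 0.15, SE, limma, adjusted p = 0.999). It was dim, and 1 AD + OPP array did not detect it.

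Hk2, the main hexokinase of muscle, had 2917.3, 2963.5 and 2917.5 in AD + OPP hearts, against 3411.7, 3177.8 and 3196 in AD + DW hearts. All AD + OPP arrays were lower, but the log2 difference was only -0.15, with an interval of -0.47 to 0.17 (limma, adjusted p = 0.999). Slc2a1 was the only member higher without overlap, at 194.3, 172.4 and 216.6 in AD + OPP and 90.9, 166.9 and 166.9 in AD + DW. Members separated without overlap were thus 1 higher and 2 lower, where 4.16% and 3.54% of all probes were. Pfkfb2, the heart form of the Pfkfb enzymes, had 403.3, 348.6 and 317.4 in AD + OPP and 386, 473.9 and 438 in AD + DW, with overlap.

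Most of the remaining heart members had small differences. Slc2a4, the insulin-responsive carrier, differed by -0.10, Aldoa by 0.04, Gapdh by 0.01, Eno3, the muscle enolase, by 0.03, and Ldhb, the subunit of heart lactate dehydrogenase, by 0.04 on the log2 scale. The 95% interval was -0.32 to 0.38 for Eno3 and -0.59 to 0.40 for Slc2a4, and it was as wide as -0.81 to 0.51 for Pgam1. The 15 members other than Eno2, Slc2a1, Pfkfb2 and Hk2 lay between -0.15 and 0.18, and Gpi1 and Eno1 differed by -0.04 and -0.13. The 3 Gapdh probes were at -0.04, -0.02 and 0.01. Among the 26 related genes tested in the heart, the signal of 11 was higher and that of 15 lower, 0 of them at an unadjusted p under 0.01. Pygl had 208.2, 115.6 and 172.7 in AD + OPP hearts and 106.3, 118 and 93.5 in AD + DW hearts, Dld, a subunit of pyruvate dehydrogenase, had 2852.1, 2957.6 and 3099.9 in AD + OPP hearts and 2404.2, 2606 and 2616.6 in AD + DW hearts, and Slc2a8, a carrier of inner membranes, had 70.6, 36.7 and 78.7 in AD + OPP hearts and 64.2, 107.7 and 96.4 in AD + DW hearts. Neutrophil genes varied between hearts, with a mean log2 signal of 7.31, 5.97 and 6.05 in AD + OPP hearts and 4.53, 6.83 and 4.85 in AD + DW hearts, where the groups overlapped, and 0 of those tested had an unadjusted p under 0.01. Of the 19 neutrophil genes with a probe, 7 were detected on no heart array. Their part in the heart values was not tested.

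**Figure D4:**
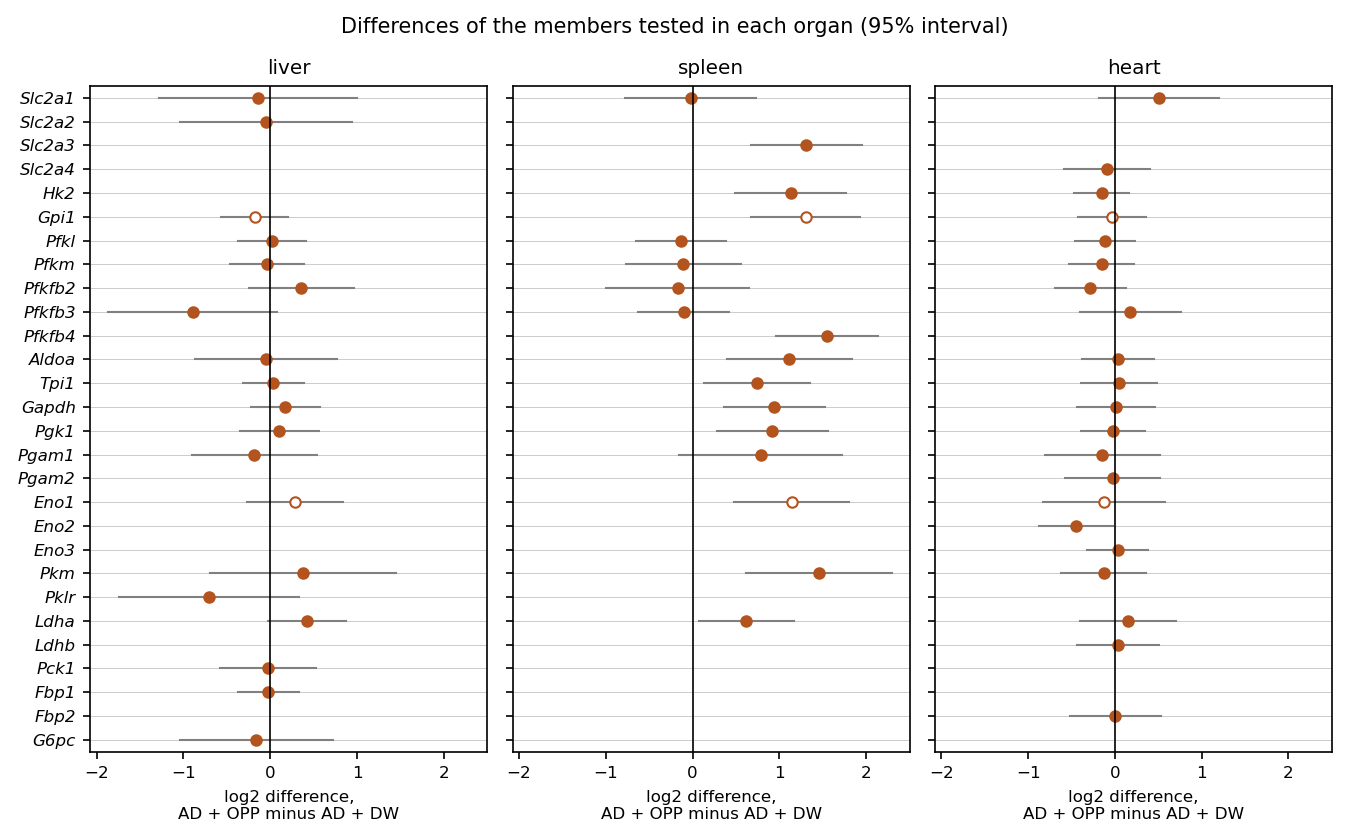
Log2 difference in normalized signal, AD + OPP minus AD + DW (x axis), with its 95% interval, for each member tested in liver, spleen and heart (rows in the order of the path). The intervals are wider than the limma test implies and can include 0 at an unadjusted p under 0.05. Filled points are annotated members and open points are Gpi1 and Eno1, which were named through the study's tables. In the spleen 10 of the 15 annotated members lie between 0.62 and 1.55 and the other 5 between -0.17 and -0.02. The annotated members of liver and heart also lie on both sides of 0.

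Whether the effect of OPP differed between organs was tested on the difference itself, in one fit over all 19 arrays. The labels do not say which arrays of different organs came from the same mouse, and the fit treated all arrays as independent. For the 12 members tested in both spleen and liver the median of that difference was 0.74 (spleen minus liver), against -0.08 over all probes. For the 13 members tested in both spleen and heart it was 0.70, against -0.08, and for the 12 in liver and heart it was 0.12, against -0.03. No member passed an adjusted p of 0.05 in limma in any of the 3 contrasts, which 0.711%, 0.0196% and 0% of all probes did. At an unadjusted p under 0.05, 6 members were higher and 0 lower in spleen minus liver, where 5.8% and 7.03% of all probes were. In spleen minus heart 5 were higher and 0 lower, where 3.81% and 5.28% were, and in liver minus heart 0 were higher and 1 lower, where 2.19% and 1.77% were. The largest spleen differences among these were in Pkm, which exceeded the heart difference by 1.58 (limma, adjusted p = 0.343), and in Aldoa, which exceeded the liver difference by 1.16 (limma, adjusted p = 0.216). The lower one in liver minus heart was Pfkfb3, at -1.07. The first 2 contrasts share the spleen arrays and are not independent of each other. Without AD + DW spleen array 2, 2 members passed in each of them. The share of all probes that passed there was not counted, so these 2 are not read as particular to the members. Both AD + DW spleen arrays left in that setting, 1 and 3, carried pancreatic signal.

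The organs carried different isoforms of the same steps. These levels were compared among the AD + DW arrays only, on signal from which each array's background was taken off and which was brought to one distribution over all 19 arrays. Such differences were common on the array, and 78.7% of all probes differed between liver and spleen, 71.7% between liver and heart and 74.9% between spleen and heart at an adjusted p of 0.05. Against the spleen, 11 of 20 members tested were higher in the liver and 6 lower, where 38.1% and 40.6% of all probes were. Against the heart, 6 of 24 were higher in the liver and 15 lower, where 30.3% and 41.3% of all probes were, and 3 of 21 were higher in the spleen and 17 lower, where 34.8% and 40% were. Of the calls between spleen and heart, that of Pgam1 held in 4 of 13 alternative settings and was lost with the replicate block (limma, adjusted p = 0.06), that of Eno2 held in 5 of 12 and that of Pfkfb3 in 7 of 13. Organ and any hybridization batch cannot be told apart. Arrays of different organs were treated as independent here too, though some may come from the same mouse. Of the AD + DW spleen arrays, 1 and 3 carried pancreatic signal, whose part in the organ differences was not tested.

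Liver stood out by glucose production and export. Pck1 had signals of 8186, 7248, 5658 and 6626 in AD + DW livers and was detected on no spleen array, with at least a 95.5-fold higher signal. In the heart it averaged 130.9 ± 144.4 (SD, n = 3) and was detected on 2 arrays. G6pc averaged 6353 ± 1084 in the liver (SD, n = 4) and was detected on no spleen or heart array, a signal at least 87.4-fold and 94.6-fold higher. Fbp1, at 2836 ± 163 in the liver (SD, n = 4), was at least 39.4-fold above the spleen and 42.6-fold above the heart. Slc2a2 and Pklr were also detected on every AD + DW liver array and on no heart array, at least 2.63-fold and 3.61-fold higher. Each bound sets the mean of the brighter organ against, per array of the other, the lowest signal of a detected probe or the gene's own signal where that was higher.

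Heart stood out by the muscle isoforms. Pgam2, the muscle phosphoglycerate mutase, averaged 10468 ± 2876 (SD, n = 3) and was at least 142-fold above the spleen, where no array detected it. Ldhb was detected on no liver or spleen array of AD + DW and was at least 134-fold and 136-fold higher in the heart, at 8300, 9777 and 11538. Eno3 averaged 9270.5 ± 1002 in the heart (SD, n = 3), at least 128-fold above the spleen. Slc2a4, at 1172 ± 159 (SD, n = 3), was at least 16.02-fold above the liver and 16.2-fold above the spleen. Eno2, the weakest of those, was found on every AD + DW heart array and on no liver or spleen array, at least 1.22-fold and 1.23-fold higher, and Fbp2 and Hk2 on no AD + DW liver array, at least 12.8-fold and 47.2-fold lower there than in the heart.

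Other steps were shared but far brighter in the heart. Pfkm, the muscle phosphofructokinase, averaged 316 ± 58.7 in the liver (SD, n = 4), 815 ± 302 in the spleen and 12628 ± 1812 in the heart (SD, n = 3 each), a log2 difference of -5.33 between liver and heart and -4.01 between spleen and heart (limma, adjusted p = 2.1e-08 and 4.84e-07). Liver minus heart, Aldoa stood at -5.19 and Pkm at -5.56 on the log2 scale. Liver minus spleen, Pkm stood at -3.74, and spleen minus heart, Aldoa stood at -4.17. Liver Pfkm was highest on AD + DW array 1, the liver array with skeletal muscle genes, and that array was also the only liver that detected Pgam2 or Eno3. Their part in the Pfkm value was not tested.

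Spleen was highest for Slc2a3 and Pfkfb4. Hk2 lay between the other organs, at least 2.61-fold above the liver and at -4.18 on the log2 scale in spleen minus heart. Slc2a3 averaged 884 ± 319 there (SD, n = 3), 53.4 ± 59.9 in the liver (SD, n = 4) and 76.9 ± 33.4 in the heart (SD, n = 3), detected on 1 of 4 and 1 of 3 arrays in these 2 organs. Pfkfb4 was detected on all AD + DW spleen arrays and on no AD + DW heart array, at least 3.62-fold higher. Slc2a1, the carrier found in most cells, was the member for which all 3 organs were closest, at 123 ± 39.2 in the liver (SD, n = 4), 124 ± 50.2 in the spleen and 136 ± 34.7 in the heart (SD, n = 3 each), with adjusted p-values of 0.664 to 0.976 in limma. For Pfkl and Gapdh no difference between liver and spleen was called, at adjusted p-values of 0.612 and 0.147 in limma, and both were higher in the heart.

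The organ order was not always that of the AD + OPP arrays. Pkm in spleen minus heart differed by -0.03 among AD + OPP arrays (limma, adjusted p = 0.943), against -1.81 among AD + DW arrays. Spleen Pgam1 was 0.19 above the heart in AD + OPP but 0.96 below it in AD + DW on the log2 scale. Pgk1 in the liver was 0.20 below the spleen in AD + OPP but 0.73 above it in AD + DW. On AD + DW spleen arrays 1 and 3, which carried pancreatic signal, Pkm was 1207 and 945, against 2370 on array 2. Pgam1 and Pgk1 were likewise highest on array 2 of these. The part of the pancreatic signal in these orders was not tested.

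**Figure D5:**
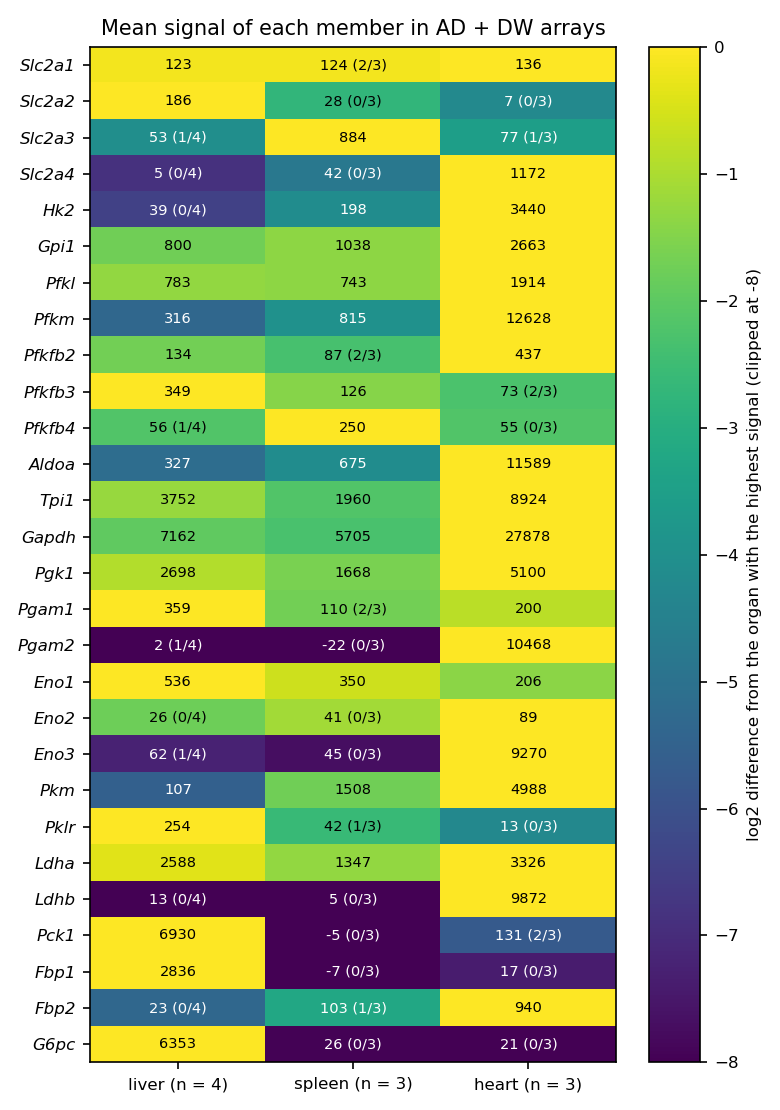
Mean signal on the common scale (number in each cell) in AD + DW arrays of liver, spleen and heart (columns). Rows are the members, with Gpi1 and Eno1, that were tested for OPP in at least one organ. The number of arrays that detected the probe is given where that was not all of them. Hk1 and Pfkp, each detected on 2 of 3 AD + DW heart arrays, are not drawn. Colour gives the log2 difference from the organ with the highest signal in the same row, so that rows are not compared with each other, and Pgam2, Eno3 and Ldhb are detected on all 3 heart arrays, with Pgam2 and Eno3 on 1 liver array too, while Pck1, Fbp1 and G6pc are brightest in the liver.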

How the data were processed

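RNA from liver, spleen and heart was hybridized to Illumina MouseRef-8 bead arrays. The authors deposited rank-invariant normalized signal intensity, made in BeadStudio 1.5.1.3 per the submitters' processing notes, together with non-normalized signal intensity and a detection p-value per probe. The deposited p-value marked a probe as detected when under 0.01. The non-normalized table still held background, so for the comparison of organs the value at which the normalized signal is 0 was taken off each array before quantile normalization over 19 arrays, a departure from the planned use. Further arrays of the study were not analysed here.

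Normalized signals were raised to a floor of 10 and taken to log2. Within an organ, probes detected on every array of either group were fitted in limma 3.58.1 (R 4.3.3, statmod 1.5.0), with Benjamini-Hochberg adjustment over all probes tested. A gene was read from its brightest probe in the organ. The difference in effect between organs came from one fit over 19 arrays. The fits were tested on simulated data. Figures were drawn with matplotlib 3.10.9 (Python 3.11.15). Promoter windows were taken from RefSeq.

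Values per array are given for members with an unadjusted p under 0.01 and no overlap, or for the 4 of smallest p in an organ, for the 3 related genes of smallest p, and, between organs, for members detected throughout one organ and nowhere in another and the 6 of largest difference. Other values in the text were chosen after they were seen. Members and lists were chosen with earlier results of these data known. No source says which mice shared a cage, so p-values measure the spread between these samples, and the number of arrays limits their precision. Replicate numbers did not pair the treatments. Between spleen and heart of AD + DW the same-numbered arrays correlated at 0.177, 0.124 and 0.193. Alternatives covered normalization, floor, detection filter, variance model, array weights, an ordinary t-test, a replicate block and leaving out each array. The paper tested its arrays with the Illumina Custom error model, which was not available here and was not rerun.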

Additional observations from a re-analysis of the deposited data

Results flagged for a closer look

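Pfkm in AD + DW livers had 1 value far from the others. Array 1 had 502.6, against 359.6 to 372.6 on the other 3 arrays, a gap of 0.909 of the whole range. Chance sets apart about 1 in 20 such groups, and all 17 members tested in the liver, with Gpi1 and Eno1, were looked at in this way. The same array carried the skeletal muscle genes, and their part in the value was not tested.

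Hk2 lay on opposite sides in 2 organs, with all AD + OPP arrays below all AD + DW arrays in the heart (log2 difference -0.153) and all above them in the spleen (1.13). The difference between the organs was 1.28 ± 0.71 (SE), at an unadjusted p of 0.0873 and an adjusted p of 0.646 in limma, short of the threshold.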

How the results depend on the processing

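In the spleen, 0 members passed an adjusted p of 0.05 as reported, but 5 did after normexp and quantile normalization, 2 with a floor of 50, 2 where every array of both groups had to detect a probe, 2 with weights per array, 7 with a variance trend fitted robustly and 5 in one fit over 19 arrays. Leaving out 1 array gave 0 to 6, with 6 without AD + DW array 2. The count of members higher at an unadjusted p under 0.01 was 7 as reported and 3 in an ordinary t-test. It was 3 to 8 when 1 array was left out (3 without AD + DW array 1, 4 without AD + DW array 3 and 4 without AD + OPP array 3). The setting without the 3 arrays with pancreatic signal was chosen after seeing the data. Over all spleen probes, 0 passed as reported, 177 after normexp, 222 with the trended variance, 254 in one fit over 19 arrays and 168 without AD + DW array 2. Over the 19 alternative settings in the spleen, that count of all probes ran from 0 to 254. It was above 0 in 10 of them, whereas the count of members was above 0 in 7. In the liver, 0 members were higher at that p, 1 after normexp and quantile normalization, and 0 to 1 with 1 array left out. The differences in effect between spleen and either other organ gave 0 to 2 members with 1 array left out. Between organs, Pgk1 turned to -0.20 in liver minus spleen and Pgam1 to 0.19 in spleen minus heart on the AD + OPP arrays. With the replicate block, 0 members passed in each organ and 6 were higher in the spleen at an unadjusted p under 0.01. Under the block, the pairing of spleen and heart left 19 members that differed, and Pgam1 was lost at an adjusted p of 0.06. The share of all probes was not counted in these settings for an unadjusted p under 0.01 or for the differences between organs. Those member counts are thus not read as particular to the members. The cause of these shifts was not tested.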
